A study of Xenopus tropicalis with 52 samples.

Results

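The early embryo of the frog Xenopus tropicalis is a standard model of zygotic genome activation. The genes described here are grouped as its zygotic Wnt ligands and feedback targets. They were chosen by name and set against the targets of maternal β-catenin: the ligands wnt8a, wnt3a, wnt5a, wnt11 and wnt11b, and the targets axin2 and sp5. Of these 7 genes, 5 could be matched to an ID among the 28148 genes of the exon count files, and wnt3a and wnt5a were not analysed here. On genome assembly v7.1, wnt8a (Xetro.C01242) lies on scaffold 3 from 59370630 to 59376205, and wnt11b (Xetro.H00537) on scaffold 8 from 24216449 to 24222676. sp5 (Xetro.I00321) lies on scaffold 9 from 17808387 to 17812641, and axin2 (Xetro.K03008) on scaffold 568 from 31006 to 36528. wnt11 (Xetro.B02296) is the separate gene that RefSeq also lists under the synonym Wnt11-R.

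Wnt ligands are secreted glycoproteins that bind Frizzled receptors with LRP co-receptors. In the canonical branch, this stops the destruction of β-catenin, which then enters the nucleus and activates genes with TCF/LEF factors. In the frog, β-catenin acts first on the dorsal side from maternal stores, where it switches on siamois and nodal3 genes, and later around the gastrula margin, downstream of zygotic Wnt8a. Axin2, a scaffold of the complex that destroys β-catenin, and Sp5, a zinc finger transcription factor, are widely used as targets that report canonical signaling and feed back on it. Wnt11b is known mainly for the non-canonical control of cell movements in gastrulation. The study names the maternally inherited ligand Wnt11 as what starts canonical Wnt signaling, and RefSeq lists wnt11 among the synonyms of wnt11b. How much of the wnt11b RNA was maternal was not tested.

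Poly(A) RNA of wild-type embryos was counted in 48 libraries of 10 to 15 embryos each, and 4sU-labelled RNA in 4 libraries. At stage 9+, a late blastula stage, the 8 groups of 3 libraries were every combination of Wnt, Nodal and BMP loss of function (LOF) and a control. Wnt LOF was an injection of 5 ng of β-catenin morpholino (MO), Nodal LOF was 100 µM SB431542 and BMP LOF was 10 µM LDN193189. The control embryos were uninjected and received the solvent DMSO, so the effect of β-catenin MO and that of an injection as such cannot be told apart at this stage. At stages 10+, 11+ and 12+, which span gastrulation, embryos with 4x zT LOF (MOs against 4 zygotic T-box genes, at 5 ng for zVegT, 5 ng for Eomes and 2.5 ng for each of the Xbra MOs) were compared with embryos given 20 ng of control MO, with 4 libraries per group. For 4sU, 30 embryos injected with 75 ng of 4sU gave, for each of stages 8+ and 10+, 1 input and 1 enriched library.

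Exon counts summed to between 27710453 and 45443446 in the stage 9+ libraries, and to between 26586752 and 60984753 in those of the T-box experiment. Transcript levels are given below as CPM, the exon counts of a gene scaled to the library's total with TMM factors, and a gene was called changed at an adjusted p of 0.1 or less in edgeR's quasi-likelihood test over all genes tested. Replicates of the same number deviated together, so a value from the fit with the replicate number as a block is given where it alters a member's call. Counts of called genes on the lists of markers, maternal targets and other pathway genes are from the fit without the block. These were whole embryos, so fewer cells of a type and less RNA per cell cannot be told apart. ctnnb1, the β-catenin gene whose translation the MO blocks, was not called in any stage 9+ group (89.0% of control in Wnt LOF, adjusted p = 1.0). Since this MO acts on translation, the ctnnb1 transcript level does not check the knockdown. Of the 4 T-box genes targeted by the MOs, 1 was called lower over the stages with 4x zT LOF (tbxt.2, log2 fold change -3.57 ± 0.35 SE, adjusted p = 5.0e-08, lower in 12 of 12 pairs) and 2 were called higher. The study lists MOs that block splicing for eomes, tbxt and tbxt.2, and whether their splicing was altered was not tested. The transcript levels of these 4 genes were not taken as a check of the knockdown.

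At stage 9+ the calls of edgeR on exon counts in single groups depended on whether replicates were paired. Without the replicate block sp5 was called lower in Wnt LOF, and wnt11b in Wnt/Nodal and Wnt/Nodal/BMP LOF, while wnt8a was called only with the block. Other settings called wnt8a lower without the block in Nodal, Nodal/BMP and Wnt/Nodal/BMP LOF. These were the Wald test of DESeq2 (adjusted p = 0.0513, 0.0381 and 0.0907) and edgeR on intron counts (0.0733, 0.00843 and 0.0279). Of the 4 members that passed the filter on low counts, 1 was called in Wnt LOF (sp5), against 1.15% of all genes tested. In Wnt/Nodal LOF 1 was called (wnt11b), against 2.39% of all genes, and in Wnt/Nodal/BMP LOF again 1 (wnt11b), against 2.99%. None of the 4 was called in BMP LOF (0% of all genes), Nodal LOF (0.681%), Nodal/BMP LOF (0.575%) or Wnt/BMP LOF (1.74%). At an unadjusted p under 0.05, 217 genes passed in BMP LOF, and no member was among them. The replicate block called 3 members where all 3 signals were blocked (wnt8a, wnt11b and sp5), against 1303 of 16001 genes. In Nodal LOF and Nodal/BMP LOF it called 2 (wnt8a and wnt11b), against 365 and 452 genes. In Wnt/BMP LOF and Wnt/Nodal LOF it also called 2 (wnt11b and sp5), against 1214 and 969 genes. All of these members were lower.

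**Figure D1:**
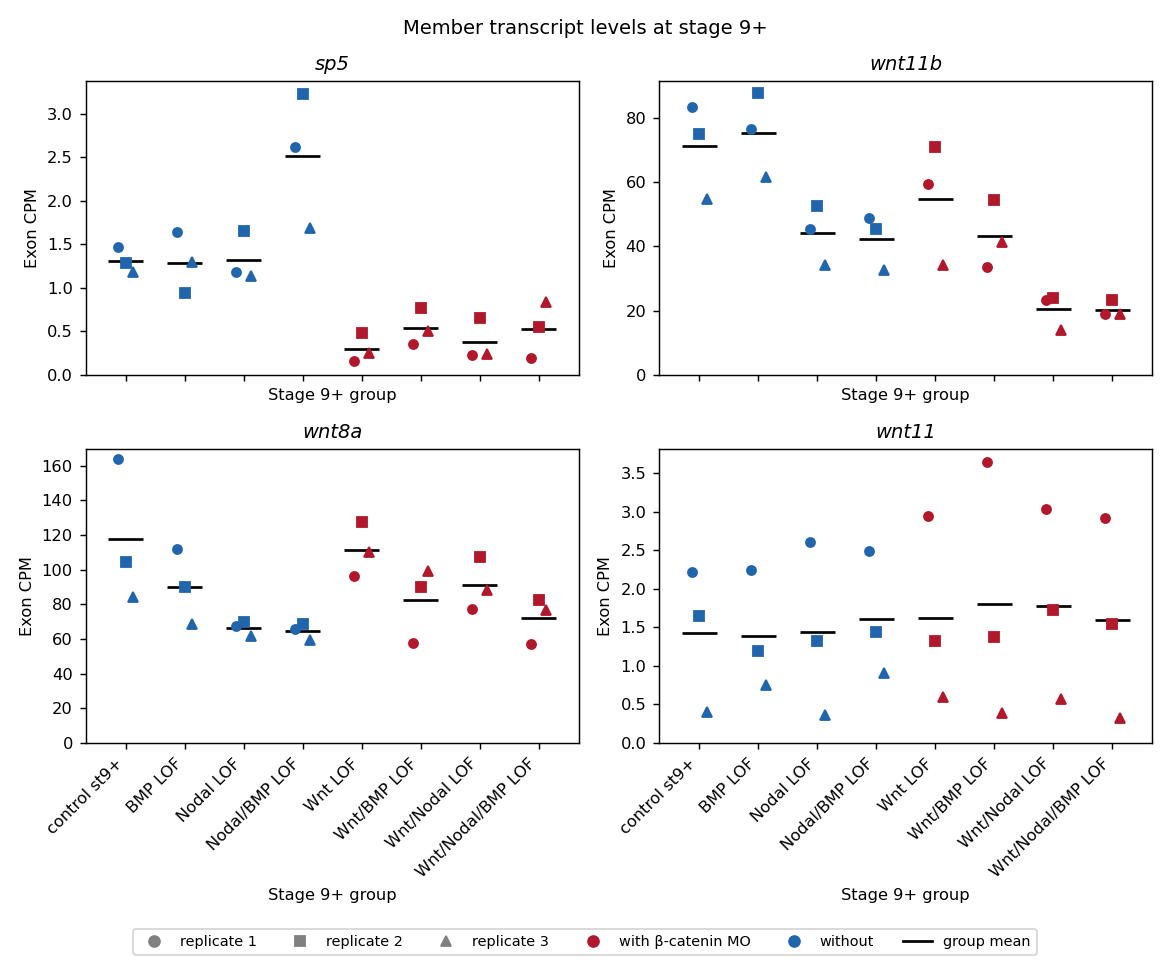
Exon CPM (vertical axis, linear from 0) of sp5, wnt11b, wnt8a and wnt11 in the 8 stage 9+ groups (horizontal axis), with 1 point per library, the marker shape giving the replicate number, red points for libraries with β-catenin MO, and a bar at each group mean. For sp5 every red point is at or below 0.833 CPM and every blue point at or above 0.937 CPM, whereas wnt11 is ordered by replicate number in each group.

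sp5 had few reads at this stage. Its levels were 1.47, 1.28 and 1.18 CPM in the control replicates 1 to 3 and 0.162, 0.479 and 0.251 CPM in Wnt LOF, from 41 to 52 and from 5 to 20 reads. All 3 Wnt LOF libraries lay below all 3 controls. The mean in Wnt LOF was 22.7% of control (log2 fold change -2.11 ± 0.52 SE, adjusted p = 0.0657). This call was lost without replicate 1 (adjusted p = 0.419), replicate 2 (0.322) or replicate 3 (0.53), and in a fit of these 2 groups alone (0.403), while it held with the replicate block (0.0122).

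The other groups with β-catenin MO showed the same direction for sp5. In Wnt/Nodal LOF its libraries held 0.229, 0.652 and 0.237 CPM, 28.5% of control (log2 fold change -1.80 ± 0.51 SE, adjusted p = 0.101, and 0.0204 with the replicate block). In Wnt/BMP LOF they held 0.359, 0.766 and 0.504 CPM, 41.5% of control (-1.27 ± 0.50 on the log2 scale, adjusted p = 0.439, and 0.0925 with the block). In Wnt/Nodal/BMP LOF they held 0.191, 0.547 and 0.833 CPM, 40.0% of control (-1.31 ± 0.50, adjusted p = 0.345, and 0.0766 with the block). In each of these groups all 3 libraries lay below all 3 controls.

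Without β-catenin MO, sp5 stayed near control or above it. BMP LOF gave 1.64, 0.937 and 1.29 CPM (98.4% of control) and Nodal LOF gave 1.18, 1.65 and 1.14 CPM (101% of control). Nodal/BMP LOF stood higher, at 2.62, 3.22 and 1.68 CPM. Its 3 libraries were all above the 3 controls, yet the difference was not called (191% of control, log2 fold change 0.94 ± 0.49 SE, adjusted p = 1.0, and 0.38 with the replicate block). The order of group means ran from Nodal/BMP LOF (2.51 CPM) through Nodal LOF (1.32), control (1.31) and BMP LOF (1.29) to Wnt/BMP LOF (0.543), Wnt/Nodal/BMP LOF (0.524), Wnt/Nodal LOF (0.373) and Wnt LOF (0.297). Neighbours overlapped at every step of this order except between Nodal/BMP LOF and Nodal LOF and between BMP LOF and Wnt/BMP LOF.

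wnt11b had lower levels in each group with Nodal blocked, and the lowest where Wnt and Nodal were blocked together. Control replicates held 83.3, 75.0 and 54.9 CPM, and those of Wnt/Nodal LOF 23.2, 23.9 and 14.0 CPM. Wnt/Nodal/BMP LOF gave nearly the same levels, at 18.8, 23.3 and 18.8 CPM. No library of either group came near the lowest control. In Wnt/Nodal LOF the mean fell to 28.7% of control (log2 fold change -1.80 ± 0.28 SE, adjusted p = 0.000834). With BMP blocked as well it fell to 28.6% (-1.81 ± 0.28, adjusted p = 0.00075).

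In the other 5 groups wnt11b was not called without the replicate block. Nodal LOF gave 45.3, 52.5 and 34.3 CPM, each below the lowest control (62.0% of control, log2 fold change -0.69 ± 0.27 SE, adjusted p = 0.809, and 0.0278 with the replicate block). Nodal/BMP LOF gave 48.8, 45.5 and 32.6 CPM (59.5% of control, -0.75 ± 0.27, adjusted p = 0.579, and 0.0167 with the block). Wnt/BMP LOF gave 33.5, 54.5 and 41.4 CPM (60.7% of control, -0.72 ± 0.27, adjusted p = 0.359, and 0.0128 with the block), which is a narrow gap to the controls. Wnt LOF alone gave 59.3, 71.0 and 34.1 CPM and overlapped the controls (77.1% of control, -0.37 ± 0.27, adjusted p = 1.0). BMP LOF gave 76.5, 87.7 and 61.6 CPM (106% of control), the highest group mean. In the order of means, BMP LOF (75.3 CPM), control (71.1), Wnt LOF (54.8), Nodal LOF (44.1), Wnt/BMP LOF (43.1) and Nodal/BMP LOF (42.3) overlapped step by step, and a gap then separated Wnt/Nodal LOF (20.4) and Wnt/Nodal/BMP LOF (20.3).

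The departure of wnt11b in Wnt/Nodal LOF from the sum of the single effects was -0.74 ± 0.38 SE on the log2 scale, with an unadjusted p of 0.0671 and an adjusted p of 1.0 in edgeR. With the replicate block it was -0.71 ± 0.22, with an unadjusted p of 0.00545 and an adjusted p of 0.9998. None of the 3 pairwise interactions was called for any member, with or without the block. Over all 16001 genes edgeR without the block called 0 for each interaction, with 144 (Wnt by Nodal), 78 (Wnt by BMP) and 175 (Nodal by BMP) at an unadjusted p under 0.05. With the block it called 1 gene for Wnt by Nodal and 0 for the other 2. The Wald test of DESeq2 called 4 genes for Wnt by Nodal and 0 for the other 2.

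wnt8a varied between the control replicates at stage 9+, which held 164, 105 and 84.0 CPM. Wnt LOF gave 96.3, 127 and 110 CPM. These ranges overlapped, and the mean was 94.6% of control (log2 fold change -0.08 ± 0.23 SE, adjusted p = 1.0). Nodal LOF gave 67.3, 69.9 and 62.0 CPM and Nodal/BMP LOF 65.6, 68.4 and 59.3 CPM. All 6 of these libraries lay below the lowest control. The mean was 56.5% of control in Nodal LOF (-0.82 ± 0.23, adjusted p = 0.216, and 0.0965 with the replicate block) and 54.8% in Nodal/BMP LOF (-0.87 ± 0.23, adjusted p = 0.19, and 0.0642 with the block).

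Counts on the introns of wnt8a, which come largely from unspliced RNA, moved further in the same direction. They ran from 445 to 989 CPM of intron counts in the control and from 290 to 317 CPM in Nodal LOF. The log2 fold change of intron counts was -1.08 in Nodal LOF (adjusted p = 0.0733) and -1.48 in Nodal/BMP LOF (adjusted p = 0.00843). In Wnt/Nodal/BMP LOF the exon levels of wnt8a were 57.0, 82.4 and 76.7 CPM, also all below the controls (61.3% of control, -0.71 ± 0.23 SE, adjusted p = 0.189, 0.0868 with the replicate block and 0.0279 on intron counts). Wnt/Nodal LOF gave 77.4, 107 and 88.5 CPM, Wnt/BMP LOF 57.6, 90.1 and 99.2 CPM and BMP LOF 112, 90.2 and 68.9 CPM, and these 3 groups overlapped the control. The means fell in the order control (118 CPM), Wnt LOF (111), Wnt/Nodal LOF (91.1), BMP LOF (90.3), Wnt/BMP LOF (82.3), Wnt/Nodal/BMP LOF (72.0), Nodal LOF (66.4) and Nodal/BMP LOF (64.4), with overlap between all neighbours.

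wnt11 and axin2 had low levels at stage 9+. wnt11 held 2.22, 1.65 and 0.404 CPM in the control, and in each of the 8 groups replicate 1 was highest and replicate 3 lowest. Its group means lay between 1.39 CPM (BMP LOF) and 1.80 CPM (Wnt/BMP LOF), all neighbours overlapped, and no log2 fold change was past 0.34 (SE 0.90). With the replicate block the change in Wnt/BMP LOF was 0.20 ± 0.29 SE and was not called (adjusted p = 0.807). axin2 had 0 to 8 reads in each stage 9+ library and did not pass the filter. A count of 0 in a stage 9+ library allows a level of up to 0.108 CPM (3 reads, counting error only), so a fall in axin2 was not detectable at this depth. Its highest level in any stage 9+ library was 0.227 CPM, in Wnt/Nodal LOF.

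**Figure D2:**
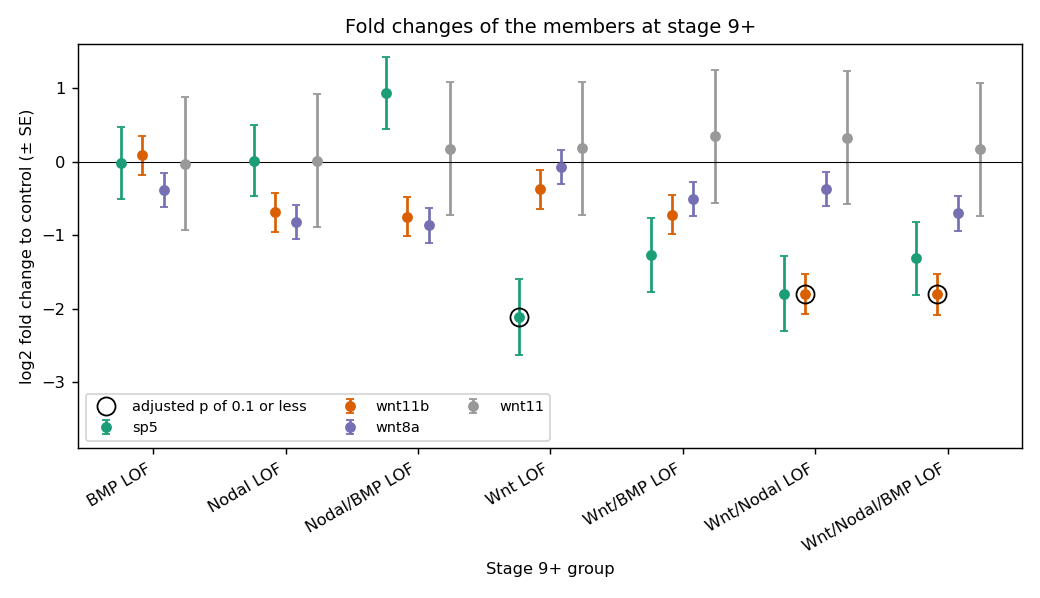
Log2 fold change to the control (vertical axis, with the SE of the edgeR fit as error bars) of sp5, wnt11b, wnt8a and wnt11 in the 7 LOF groups (horizontal axis), with black rings around values at an adjusted p of 0.1 or less. Rings stand on sp5 in Wnt LOF (-2.11) and on wnt11b where Wnt and Nodal were blocked (-1.80) or all 3 signals (-1.81).

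Since the 8 groups form a full factorial, each signal could also be compared over its 4 backgrounds, a comparison added after the data were seen. Averaged in this way, Wnt LOF lowered sp5 and wnt11b, and Nodal LOF lowered wnt11b and wnt8a. The 12 libraries with β-catenin MO held from 0.162 to 0.833 CPM of sp5 (median 0.419) and the 12 without it from 0.937 to 3.22 CPM (median 1.38), so that the 2 sets did not overlap. The averaged log2 fold change of sp5 was -1.85 ± 0.25 SE (adjusted p = 9.1e-05, lower in 12 of 12 pairs), and it held without each replicate. Of the 4 members, 2 were called for Wnt LOF, against 5.69% of all genes, and 2 for Nodal LOF, against 1.68%. For BMP LOF 0 members were called, against 0.0875% of all genes, and 482 genes, wnt8a and sp5 among them, passed at an unadjusted edgeR p under 0.05. The Wald test of DESeq2 called 66 genes there.

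For wnt11b both averaged effects were called. It fell by 0.84 ± 0.13 SE on the log2 scale for Wnt LOF (adjusted p = 0.000516, lower in 12 of 12 pairs) and by 1.01 ± 0.13 for Nodal LOF (adjusted p = 0.000206, lower in 12 of 12 pairs). For wnt8a the averaged Nodal effect was -0.45 ± 0.12 (adjusted p = 0.0733, lower in 12 of 12 pairs), a call lost without replicate 2 (adjusted p = 0.881) or replicate 3 (0.429). Its averaged Wnt effect was 0.10 ± 0.12 (adjusted p = 0.957), and without replicate 1 it was 0.37 and called higher (adjusted p = 0.0209). wnt11 was called for none of the 3 signals.

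The levels of tissue markers moved in the same groups. The 5 organizer markers summed to between 588 and 900 CPM in the control, between 57.7 and 84.4 CPM in Nodal LOF and between 1.46 and 4.26 CPM in Wnt/Nodal LOF, where all 5 were called lower and gsc had no reads in replicates 2 and 3. The 5 markers of ventrolateral mesoderm, the tissue in which wnt8a is known to be expressed in the gastrula, summed to between 662 and 1353 CPM in the control and between 402 and 740 CPM in Nodal LOF, with 0 of 5 called. They were tbxt, ventx1.1, ventx2.1, szl and msgn1. The study describes tbxt as uniform along the dorsoventral axis, so it marks mesoderm more widely. All 4 endoderm markers were called lower in Nodal LOF, and their sum ranged from 76.3 to 167 CPM against 471 to 1034 CPM in the control. In Wnt LOF 4 of 5 organizer markers were called lower (sum from 9.82 to 45.2 CPM). None of the 4 endoderm markers was called there, yet their sum, from 148 to 376 CPM, lay below the control range. Averaged over the 4 backgrounds, Wnt LOF called 3 of the 4 endoderm markers lower. The 5 markers of animal ectoderm summed in Wnt LOF to between 1486 and 2274 CPM against 654 to 1324 CPM in the control, with 1 of 5 called higher. The part of these shifts in the results for sp5, wnt8a and wnt11b was not tested.

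Of the 5 targets of maternal β-catenin, measured in the same libraries, 4 fell to at most 3.70% of control in Wnt LOF, and nodal6 was the exception. nodal3.1, a divergent Nodal ligand, held 21.3, 34.0 and 55.0 CPM in the control and 0.0646, 0.0479 and 0.126 CPM in Wnt LOF (log2 fold change -8.79, adjusted p = 0.000296). sia1, a homeobox activator of the organizer, held 8.25, 7.34 and 17.7 CPM in the control and had 0, 0 and 1 reads in Wnt LOF (adjusted p = 0.00213). In Wnt/BMP LOF no library had a read of sia1 or nodal3.1, which puts sia1 at least 121-fold and nodal3.1 at least 400-fold below the control mean, taking 3 reads per library as the floor. In Wnt/Nodal/BMP LOF replicate 3 stood apart, with 24 reads of sia1 and 63 of nodal3.1 against 0 to 3 in the other 2 libraries.

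Of the 5 maternal targets (sia1, sia2, nodal3.1, nodal5 and nodal6), 4 were called lower in each of the 4 groups with β-catenin MO and 0 in Nodal, BMP or Nodal/BMP LOF. The exception in each was nodal6, at 23.6% of control in Wnt LOF (log2 fold change -2.08 ± 0.73 SE, adjusted p = 0.406), close to the 22.7% of sp5, and at 67.1% in Wnt/BMP LOF (-0.58 ± 0.69, adjusted p = 1.0). Averaged over its 4 backgrounds, Wnt LOF called all 5 maternal targets lower, nodal6 included. The median log2 fold change of the 5 maternal targets in Wnt LOF was -6.02, beside -0.23 for the 4 members and 0.0050 for all genes tested. These medians compare unlike kinds of genes, since the members were the ligands wnt8a, wnt11 and wnt11b and only 1 target, sp5 (-2.11). sia1, sia2 and the nodal genes have close paralogs that could share reads, so each single value is uncertain.

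Other genes of the pathway were taken from lists of its parts. Their counts stand beside the 1.15% of all genes called in Wnt LOF, or 184 genes, whereas the fit without replicate 2 called 13 genes. In Wnt LOF 3 of 15 receptor genes were called lower and none higher: fzd8 (log2 fold change -4.95 ± 0.58 SE), fzd7 (-1.33 ± 0.28) and fzd4 (-1.32 ± 0.22), which encode Frizzled receptors. The list of 19 antagonists and feedback genes also held the transcription factor genes cdx1, cdx2, cdx4 and msgn1. Of the 19, 3 were called lower and 1 higher. Those lower were dkk1 (-8.23 ± 0.93), which blocks LRP co-receptors, and the secreted Frizzled-related genes frzb2 (-10.61 ± 1.41) and frzb (-4.70 ± 1.15). The one higher was szl (2.65 ± 0.64), which encodes sizzled, a ventral secreted Frizzled-related protein that acts on BMP signaling. dkk1 and frzb were also on a list of 9 organizer genes, of which 8 were called lower in Wnt LOF, and szl was also a ventrolateral marker. None of the 16 genes of Wnt secretion and transduction was called. The median log2 fold changes of these 3 lists (receptors, antagonists and feedback genes, secretion and transduction) were -0.15, -0.11 and -0.04. Of the other Wnt ligands 2 passed the filter, and wnt5b was called lower in Wnt/Nodal/BMP LOF (33.3% of control, -1.59 ± 0.43, adjusted p = 0.0673) and in no other group.

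Across the means of the 8 groups, the named genes whose log2 levels ran most like those of wnt11b were foxa4 (Pearson r = 0.985), kdm4c (0.979) and lrrcc1 (0.978). For sp5 they were reep6 (0.988), ogt (0.987) and ckb (0.986), and for wnt8a znf527 (0.988), gata2 (0.977) and 1 gene without a symbol (0.975). For wnt11 they were man2a2 (0.969), ndufa3 (0.966) and b3gnt4 (0.961). These are the highest of 10039 genes (10040 for sp5) compared over only 8 points that share their libraries, and are a description.

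During gastrulation in control MO embryos the members took different courses. sp5 rose from 1.02, 1.82, 3.24 and 2.06 CPM at stage 10+ to 23.8, 36.9, 49.0 and 62.8 CPM at stage 11+ and 138, 156, 148 and 168 CPM at stage 12+. No 2 stages overlapped. The rise was 4.39 ± 0.31 SE on the log2 scale between the first stages (adjusted p = 3.0e-10) and 1.82 ± 0.27 between the later ones (adjusted p = 3.1e-06). axin2 started lower still, at 0.0984, 0.138, 0.216 and 0.346 CPM (5 to 20 reads), and reached 0.933, 1.92, 1.81 and 3.22 CPM at stage 11+ and 9.42, 13.6, 7.91 and 14.7 CPM at stage 12+. Its 2 steps were 3.26 ± 0.45 (adjusted p = 2.4e-06) and 2.52 ± 0.40 (adjusted p = 9.0e-06), again without overlap.

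Of the ligands, wnt8a and wnt11b were present from the first of these stages, whereas wnt11 stayed low until stage 12+. wnt8a held 69.3, 91.9, 103 and 106 CPM at stage 10+, 129, 183, 150 and 181 CPM at stage 11+ and 45.1, 52.2, 48.5 and 62.1 CPM at stage 12+. It peaked at stage 11+, with no overlap between the stages (log2 change 0.80 ± 0.15 SE, adjusted p = 9.7e-05, then -1.63 ± 0.15, adjusted p = 4.0e-09). wnt11b held 73.6, 72.6, 70.9 and 72.1 CPM at stage 10+, 103, 128, 125 and 148 CPM at stage 11+ and 102, 121, 130 and 118 CPM at stage 12+. It rose once (0.80 ± 0.11, adjusted p = 2.5e-06), and the later stages overlapped (-0.10 ± 0.11, adjusted p = 0.446). wnt11 held 2.16, 0.598, 2.29 and 0.519 CPM at stage 10+ and 0.64, 0.37, 1.52 and 0.643 CPM at stage 11+, which overlapped, and 4.94, 7.60, 10.3 and 9.97 CPM at stage 12+, a rise of 3.36 ± 0.62 (adjusted p = 5.9e-05). In each step 4 of the 5 members were called, against 57.7% and 72.2% of all genes, so that most genes changed between these stages. On intron counts the first step was no longer called for wnt8a (0.10, adjusted p = 0.623) or wnt11b (0.21, adjusted p = 0.246). At the second step, intron counts no longer called sp5 (0.37, adjusted p = 0.248) and called wnt11b lower (-0.92, adjusted p = 6.9e-06).

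Over the same stages the maternal targets fell, opposite to sp5 and axin2. sia1 fell from 4.74 to 9.50 CPM at stage 10+ to at most 0.113 CPM at stage 12+, and nodal3.1 from 8.73 to 26.6 CPM to at most 0.0767 CPM. All 5 were called lower at the first step and 4 of 5 at the second, the exception being sia2 (log2 change 0.24 ± 0.56 SE, adjusted p = 0.723).

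**Figure D3:**
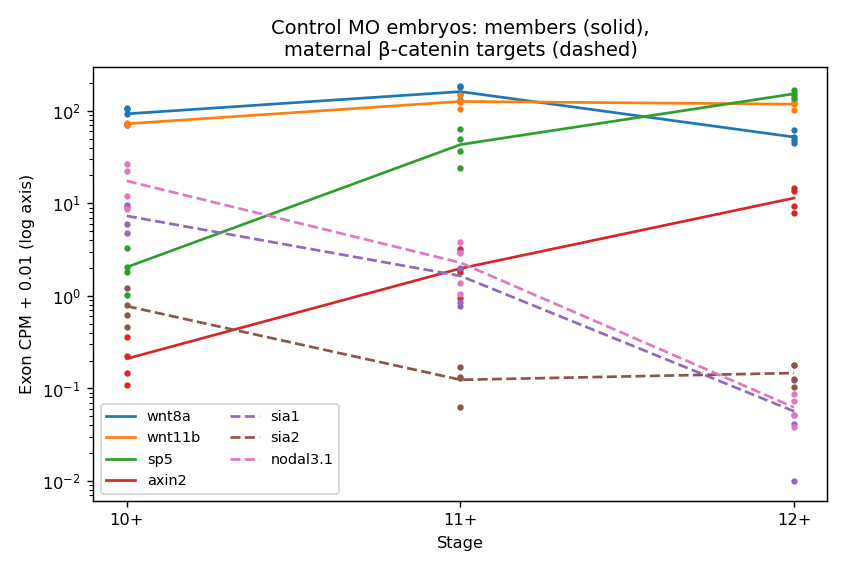
Exon CPM plus 0.01 on a log axis (vertical) against stage (horizontal) in control MO embryos, with lines through the means and points for the 4 libraries of each stage, solid for members and dashed for maternal β-catenin targets. sp5 climbs from a mean of 2.04 to 152 CPM and axin2 from 0.20 to 11.4 CPM, while sia1 and nodal3.1 drop below 0.12 CPM.

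With 4x zT LOF, wnt8a, wnt11b and sp5 were called lower over the stages together, though wnt8a was not lower at stage 12+. The size of the difference depended on the stage for wnt8a and wnt11b, and for wnt11b this was not called without replicate 4 or on intron counts. At stage 10+ 2 of 5 members were called, both lower, against 17.4% of all genes (8.0% lower). At stage 11+ 4 of 5 were called, all lower, against 33.7% (16.8% lower), and at stage 12+ 1 of 5, lower, against 37.8% (16.4% lower). Over the stages together, 3 of 5 were called lower, against 41.9% of all genes (20.3% lower). The stage-by-condition test called 2 members, against 27.1% of all genes.

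wnt8a was at about the same share of control at the first 2 stages and not at the last. With 4x zT LOF it held 38.4, 47.5, 41.6 and 47.4 CPM at stage 10+, all below the lowest control library, 47.2% of control (log2 fold change -1.08 ± 0.15 SE, adjusted p = 2.9e-05). At stage 11+ it held 63.6, 89.4, 78.6 and 70.8 CPM, again below all controls, 47.0% of control (-1.09 ± 0.15, adjusted p = 1.2e-05). At stage 12+ it held 48.3, 66.3, 54.8 and 66.4 CPM, which overlapped the controls, 113% of control (0.18 ± 0.15, adjusted p = 0.386). Each of the 4 pairs was higher at this stage, and the replicate block called it higher (adjusted p = 0.0869). The effect differed between stages (adjusted p = 0.000137 for stage by condition).

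wnt11b was lower in 12 of 12 pairs. With 4x zT LOF it held 64.8, 60.6, 55.0 and 58.0 CPM at stage 10+, below the 4 controls (82.4% of control, log2 fold change -0.28 ± 0.11 SE, adjusted p = 0.105, and 0.040 with the replicate block). At stage 11+ it held 63.6, 67.8, 74.1 and 63.2 CPM, without overlap (53.3% of control, -0.91 ± 0.11, adjusted p = 3.1e-06). At stage 12+ it held 76.6, 98.6, 115 and 102 CPM and overlapped the controls (83.4% of control, -0.26 ± 0.11, adjusted p = 0.0746, and 0.256 without replicate 2 or 0.162 without replicate 4). The stages differed in effect (adjusted p = 0.00496, 0.144 without replicate 4 and 0.168 on intron counts). Its intron counts did not fall: they ran from 137 to 167 CPM of intron counts at stage 11+ against 130 to 172 CPM in controls, and from 88.8 to 154 CPM at stage 12+ against 76.0 to 83.0 CPM, where they were called higher (log2 fold change 0.56, adjusted p = 0.00403).

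sp5 was also lower in 12 of 12 pairs (log2 fold change over the stages -0.81 ± 0.16 SE, adjusted p = 0.000407). With 4x zT LOF it held 0.722, 1.18, 0.719 and 1.34 CPM at stage 10+ and overlapped the controls (48.6% of control, -1.07 ± 0.31, adjusted p = 0.0248, 0.392 without replicate 3 and 0.124 in a fit of these 2 groups alone). At stage 11+ it held 17.6, 21.9, 26.2 and 22.2 CPM and overlapped the lowest control (51% of control, -0.97 ± 0.26, adjusted p = 0.00795, and 0.134 without replicate 4). At stage 12+ it held 105, 133, 91.7 and 109 CPM, below the 4 controls (72.1% of control, -0.47 ± 0.26, adjusted p = 0.181, 0.0518 with the replicate block and 0.00961 in a fit of these 2 groups alone). The test of stage by condition did not call it (adjusted p = 0.491), and on its few intron counts the change over the stages was -0.17 and not called (adjusted p = 0.57).

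axin2 was called at 1 stage. At stage 11+ it held 0.768, 0.970, 0.808 and 1.31 CPM with 4x zT LOF, lower in each of 4 pairs though overlapping the controls (48.9% of control, log2 fold change -1.04 ± 0.40 SE, adjusted p = 0.0574). This call was lost without replicate 2 (adjusted p = 0.142), replicate 3 (0.191) or replicate 4 (0.101), and intron counts gave 0.19. At stage 10+ it held 0.128, 0.0712, 0.131 and 0.391 CPM (adjusted p = 0.901) and at stage 12+ 9.91, 18.3, 10.8 and 12.3 CPM (113% of control, adjusted p = 0.777). Stage by condition gave an adjusted p of 0.264, and of 0.017 with the replicate block.

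wnt11 was not called at any stage. It held 2.94, 0.802, 4.21 and 0.803 CPM with 4x zT LOF at stage 10+, and as in the controls replicates 1 and 3 were the high ones. At stage 12+ it held 2.65, 6.54, 6.01 and 4.6 CPM, lower in 4 of 4 pairs but overlapping (60.3% of control, log2 fold change -0.73 ± 0.56 SE, adjusted p = 0.357, and 0.0857 in a fit of these 2 groups alone). Its intron counts were higher there, from 20.1 to 52.5 CPM of intron counts against 8.83 to 15.2 CPM in controls (log2 fold change 1.62, adjusted p = 0.00125).

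**Figure D4:**
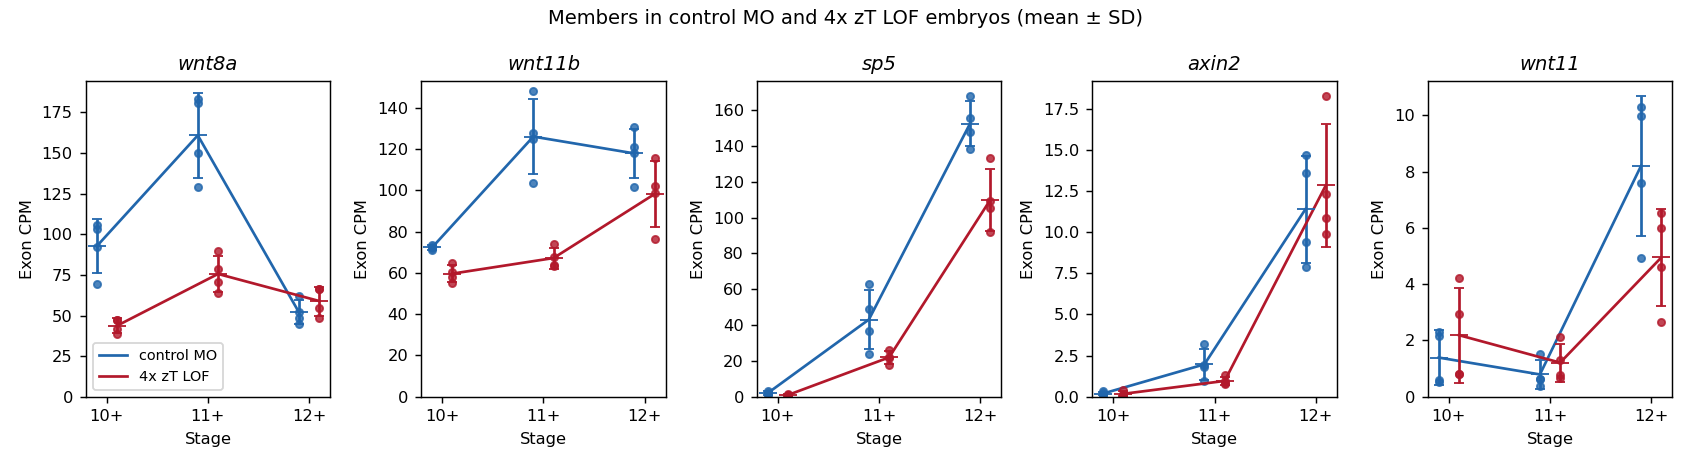
Exon CPM (vertical axes, linear from 0) of the 5 members against stage (horizontal axes) in control MO (blue) and 4x zT LOF (red) embryos, with points for the 4 libraries, lines through the means and bars of 1 SD. wnt8a is at 47.2% and 47.0% of control at stages 10+ and 11+ and at 113% at stage 12+.

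Markers moved with 4x zT LOF as well, beside 17.4%, 33.7% and 37.8% of all genes called at stages 10+, 11+ and 12+. Of all genes, 8.0%, 16.8% and 16.4% were called lower at these stages. Of the 5 markers of ventrolateral mesoderm, 4 were called lower at stages 10+ and 11+, and at stage 12+ 1 was lower and 4 were higher. Among these markers tbxt is itself a target of the MOs, so its change is not separate from the knockdown. The sum of the 5, tbxt included, ranged from 451 to 489 CPM against 549 to 727 CPM in controls at stage 10+, from 901 to 1114 against 1130 to 1651 CPM at stage 11+ and from 1411 to 1689 against 982 to 1256 CPM at stage 12+. Of the 4 endoderm markers 3 were lower at stage 10+ (sum from 581 to 644 against 762 to 933 CPM), 2 were lower at stage 11+ (967 to 1165 against 1243 to 1406 CPM) and 3 were higher at stage 12+ (993 to 1262 against 899 to 1007 CPM). Of the 5 markers of animal ectoderm 1 was lower and 1 higher at stage 10+, 3 were lower at stage 11+ and 4 were higher at stage 12+. Of the 5 organizer markers 2 were lower at stage 10+, 1 was lower and 1 higher at stage 11+, and 3 were lower at stage 12+. The part of these shifts in the results for wnt8a, wnt11b, sp5 and axin2 was not tested.

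Ordered by mean, wnt8a ran from control MO at stage 11+ (161 CPM) through control MO at stage 10+ (92.6), 4x zT LOF at stage 11+ (75.6), 4x zT LOF at stage 12+ (58.9) and control MO at stage 12+ (52.0) to 4x zT LOF at stage 10+ (43.7), and only the first of these steps was without overlap. Over these 6 group means the genes most like wnt8a were arf5 (Pearson r = 0.992), phb (0.990) and sco1 (0.989), and those most like sp5 were igf2 (0.999), cycs (0.999) and znf750 (0.999). For wnt11b they were ifih1 (0.984), strap (0.978) and fgf16 (0.977), for axin2 col18a1, rplp2 and pfdn6 (1.0 each after rounding) and for wnt11 tf (0.998), uvrag (0.997) and pou3f2 (0.996). With 6 points along 1 course of stages, high values are common, and they are given as a description.

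In the lists of receptors, of secretion and transduction, and of antagonists and feedback genes, 4x zT LOF lowered more genes than it raised. Over the stages, 6 of 15 receptor genes were called lower and 1 higher, with fzd2 the most reduced (log2 fold change -0.62 ± 0.07 SE, lower in 12 of 12 pairs). Of 16 genes of secretion and transduction 6 were lower and 4 higher, and the lower ones included wls (-0.58 ± 0.07, lower in 12 of 12 pairs), which carries Wnt ligands to the cell surface. Of 19 antagonists and feedback genes 9 were lower and 2 higher, led by sfrp1 (-2.84 ± 0.23), a secreted Wnt antagonist, and msgn1 (-2.06 ± 0.29), a transcription factor of presomitic mesoderm. Next came cdx2 (-0.88 ± 0.21) and cdx4 (-0.74 ± 0.19), which like msgn1 are transcription factor genes on this list and not antagonists. These shares stand beside the 41.9% of all genes called in either direction, with 20.3% called lower. The 5 maternal targets were all called higher over the stages, among them nodal6 (1.87 ± 0.35, higher in 12 of 12 pairs) and sia1 (1.1 ± 0.27, higher in 11 of 12 pairs), although the intron counts of sia1 gave -0.57.

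In the 4sU experiment, RNA made after injection of the label carries 4sU and is enriched by its selection. The study injected zygotes, so a high ratio of enriched to input counts marks a large share of RNA made since then. It does not measure the rate of transcription at the time of collection. There was 1 library per stage and fraction, so no value could be checked against a replicate, and the intervals (95%, exact binomial) cover counting error only. wnt8a had 88 input and 134 enriched read pairs at stage 8+ and 540 and 541 at stage 10+. The ratio after scaling was 17.0 (12.9 to 22.5) at stage 8+ and 6.52 (5.78 to 7.36) at stage 10+, above that of 98.3% and 92.5% of genes with at least 10 input pairs. Scaling by total counts gave 4.21 at stage 10+, below the counting interval. The scaled input level of wnt8a was 8.43 times higher at stage 10+ than at stage 8+, and its scaled enriched count rose from 421 to 1366.

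wnt11b had 362 input and 100 enriched pairs at stage 8+ and 237 and 232 at stage 10+. Its ratio was 3.08 (2.44 to 3.85) and then 6.37 (5.30 to 7.67), the latter 4.12 with total counts, and its scaled input at stage 10+ was 0.90 times that at stage 8+. Thus at stage 8+ wnt11b was the less enriched of the 2 ligands, and at stage 10+ their counting intervals overlapped. sp5 had 18 input and 14 enriched pairs at stage 8+, a ratio of 8.66 (3.99 to 18.4), and 19 input and 0 enriched pairs at stage 10+. With 3 pairs as the floor this allows a ratio of up to 1.03, and the exact interval reaches 1.40. wnt11 had 2 input pairs and none enriched at stage 8+ and none at stage 10+, and axin2 was not analysed here in this table.

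The median ratio over all genes was 0.764 at stage 8+ and 0.684 at stage 10+. The 5 maternal targets lay above these medians and differed among themselves. nodal3.1 had a ratio of 13.7 (13 to 14.5) and then 8.95 (8.34 to 9.61), or 10.9 and 5.78 with total counts, and sia1 one of 9.97 (6.92 to 14.3) and then 6.16 (4.13 to 9.16), the latter 3.98 with total counts. nodal6 had 21.6 (16.1 to 29.2) and then 7.63 (5.30 to 11.0). The intervals of nodal5 lay below those of wnt8a at both stages, at 7.47 (6.23 to 8.95) and 2.53 (1.73 to 3.65), and so did that of sia2 at stage 10+, at 2.26 (0.876 to 5.24) after 14.6 (10.0 to 21.3) at stage 8+.

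**Figure D5:**
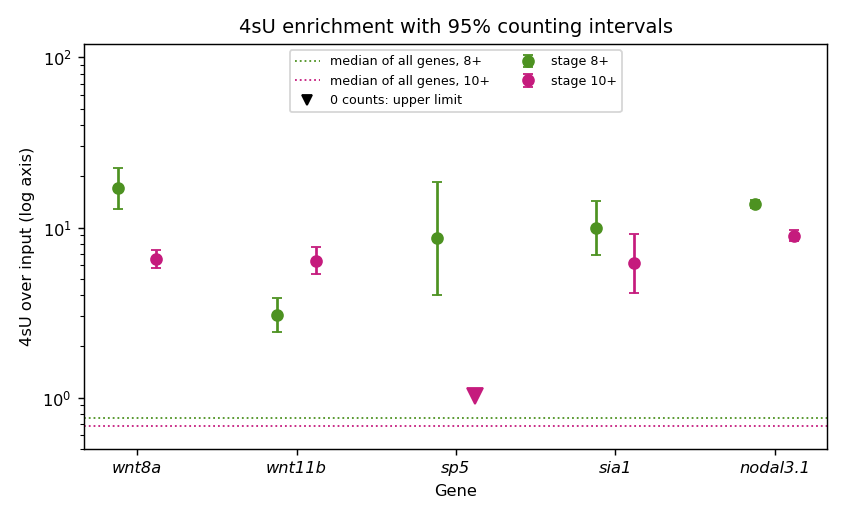
Ratio of 4sU-enriched to input counts (vertical log axis) at stage 8+ (green) and stage 10+ (pink) for wnt8a, wnt11b, sp5, sia1 and nodal3.1 (horizontal axis), with 95% counting intervals, dotted lines at the medians of all genes and a triangle for the upper limit where no enriched pair was counted. wnt8a drops from 17.0 to 6.52 and wnt11b goes from 3.08 to 6.37. The triangle of sp5 at stage 10+ stands at 1.03, the limit from a floor of 3 pairs, while its exact interval reaches 1.40.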

How the data were processed

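Reads of poly(A) RNA, sequenced from both ends, were aligned by the authors to genome assembly v7.1 (STAR), and they counted exon and intron reads per gene with VERSE, without strand, so overlapping genes and paralogs can share reads. For 4sU RNA they aligned pairs with Bowtie2 to the transcriptome. All files were deposited as raw counts, without normalization. The 4sU gene lines summed to between 888940 and 7884062 pairs, and the unmapped line (39.5% to 95.5% of pairs) was left out. Genes were named by the 4sU table and, for axin2, the study's gene table.

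Counts were tested in R 4.3.3 with edgeR 4.0.16 (TMM, filterByExpr, quasi-likelihood fits of condition, stage and condition, or group, Benjamini-Hochberg adjustment), on 16001 stage 9+ genes and 17188 T-box genes. The scripts were first tested on simulated data. The alternatives were DESeq2 1.42.0 and its scaling, no filter on low counts, the replicate block, intron counts, fits of only the groups compared, and leaving out each replicate, and comparisons averaged over backgrounds were added after the data were seen. DESeq2's median-of-ratios factors scaled the 4sU table. Percent of control compares mean CPM. Same-numbered replicates correlated (r between 0.333 and 0.916 among stage 9+ groups, and between 0.573 and 0.890 among T-box groups), and the deposited libraries carry 1 frog letter per number, so numbers pair the libraries. Whether the libraries of a group came from separate matings is not given beyond that letter.

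Named pathway genes were at most the 4 called genes of a list with the largest change, genes most like a member had at least 50 normalized counts on average, and correlations used log2 of mean CPM plus 0.01. Members and lists were chosen with earlier results of these data known.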

Additional observations from a re-analysis of the deposited data

Results flagged for a closer look

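For wnt8a the effect of 4x zT LOF differed between the stages in the edgeR test of stage by condition (adjusted p = 0.000137), its level being 47.2% of control first (stage 10+), 47.0% next (stage 11+) and 113% last (stage 12+). For wnt11b it differed as well (adjusted p = 0.00496, 0.144 without replicate 4 and 0.168 on intron counts), with 82.4%, 53.3% and 83.4% of control. No library stood apart from the other 3 of its group in any of the 30 sets of member values in the T-box experiment by Dixon's test, which by chance alone would pick about 5% of sets.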

How the results depend on the processing

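Of the alternatives for single members, most kept the direction and the side of the threshold, and the cause of the exceptions was not tested. With the replicate block, 2 members were called in each of Nodal LOF, Nodal/BMP LOF, Wnt/BMP LOF and Wnt/Nodal LOF, 3 where all 3 signals were blocked and 3 with 4x zT LOF at stage 12+, and the block ended no member's call. The Wald test of DESeq2 called 1 member in Nodal LOF, 1 in Nodal/BMP LOF, 2 with Wnt and Nodal blocked and 2 with all 3 signals blocked. In the signal LOF groups only 2 members, wnt8a and wnt11b, passed the filter on intron counts. Of these 2, intron counts called 1 in Nodal LOF, 1 in Nodal/BMP LOF, 0 in Wnt LOF and 2 in Wnt/Nodal/BMP LOF. For Wnt LOF averaged over 4 backgrounds 1 of the 2 was called. sp5 was not tested on introns in these groups, so the 0 in Wnt LOF does not bear on its call. In the T-box experiment 5 members were tested on intron counts. With 4x zT LOF 1 was called at stage 10+, 1 at stage 11+, 2 at stage 12+ and 1 for stage by condition. For the first step in control MO embryos 2 were called. A fit of only the groups compared called 0 in Wnt LOF and 2 with 4x zT LOF at stage 12+, where no filter on low counts left 0. Leaving out 1 replicate gave 0 to 0 members in Wnt LOF, 1 to 2 for Nodal LOF averaged over 4 backgrounds, 1 to 3, 2 to 4 and 0 to 1 with 4x zT LOF at stages 10+, 11+ and 12+, and 1 to 2 for stage by condition.

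Intron counts reversed the 4x zT LOF effect of wnt11b (0.050 at stage 11+, 0.56 at stage 12+ and 0.22 over the stages), axin2 (0.19 at stage 11+) and wnt11 (1.62 at stage 12+), on the log2 scale. Over the stages they also reversed sia1 (-0.57), wnt5b (1.53), fzd6 (0.14), pygo1 (-0.29), tcf7 (-0.37) and lef1 (0.42), and, in control MO embryos, sia1 at the second step (0.60).

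Over all genes, the replicate block called 365 genes in Nodal LOF (109 without it), 636 in Wnt LOF (184), 969 with both blocked (382) and 1303 with BMP blocked too (478). Without replicate 2 the same groups had 8, 13, 97 and 88. Scaling the 4sU libraries by total counts gave ratios at stage 10+ of 4.21 for wnt8a, 4.12 for wnt11b, 3.98 for sia1 and 5.78 for nodal3.1, and of 10.9 for nodal3.1 at stage 8+. Upper quartile scaling gave nodal3.1 14.9 and 9.80. Depth limited axin2 at stage 9+ and sp5 in the 4sU libraries. For wnt11 at stage 9+ the spread between replicate numbers set the SE, which in Wnt/BMP LOF was 0.90 without the replicate block and 0.29 with it.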
